A study of Mus musculus with 2 samples.

Results

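The cells described here were conventional dendritic cells (DCs) from libraries that the study's methods describe as CD45+ splenocytes of mice infected with lymphocytic choriomeningitis virus clone 13 (LCMV-cl13). They were selected on their measured counts, in the second of 2 sets of libraries in the series, here called runs. A barcode was kept with at least 2 UMIs (unique molecular identifiers, counted RNA molecules) of Flt3, Zbtb46, Xcr1 and Clec9a together and at least 10 UMIs of H2-Aa. It also had no UMI of Siglech, Cd79a or Cd3e and fewer than 5 UMIs of C1qa and C1qb together. These limits gave 371 of 20568 barcodes of the run, 36 of 9539 in PEP-WT and 335 of 11029 in PEP-619WW, out of 43965 barcodes in all 4 libraries. PEP-WT mice were C57BL/6 mice with the wild type Ptpn22 gene. PEP-619WW mice were C57BL/6 mice homozygous for the mouse form of the autoimmunity-associated Ptpn22 allele, put in by CRISPR/Cas9. Ptpn22 encodes PEP, a phosphatase of immune cells. By that description both genotypes were infected, and splenocytes of several mice per genotype, matched for age and sex, were pooled and sorted 8 days later. No uninfected library was compared here. Each genotype had 1 library in a run, and no difference between genotypes or runs has a replicate check. The link of this run to that description is that its barcode numbers equal the cell numbers in the study's methods for the sorted splenocytes. The sample labels instead name liver, the Jurkat line and CD45+ cells infiltrating a tumor, while the design text names spleen, so the tissue and the infection of these libraries are unsettled.

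Conventional DCs take up antigen, display it on MHC molecules and prime T cells. Type 1 conventional DCs (cDC1) depend on the transcription factors IRF8 and BATF3, carry the chemokine receptor XCR1 and the dead-cell receptor CLEC9A, and cross-present antigen to CD8 T cells. Other conventional DCs carry C-type lectins such as CD209a and CD301b and mainly serve CD4 T cells. After activation, DCs switch on CCR7, the receptor that draws them to the T cell zones of lymphoid organs, with ligands for T cell receptors of costimulation and inhibition.

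The PEP-WT and PEP-619WW libraries of the run held 70500076 and 55504449 UMIs, with medians of 4837 and 3611 UMIs per barcode. The DCs were deeper than that, with medians of 9369 UMIs in PEP-WT and 9663 in PEP-619WW and a range of 1011 to 28236. Their summed counts were 384395 UMIs in PEP-WT and 3332617 in PEP-619WW. Levels are given as counts per 1000000 of these sums (CPM), and the values in parentheses after them are exact 95% Poisson intervals, which cover counting error only. Where 2 levels stand together, PEP-WT comes first. The libraries did not carry the same sex markers, since Xist stood at 261.5 CPM with Ddx3y at 29.97 CPM in PEP-WT and at 0.0901 and 73.5 CPM in PEP-619WW. These levels go against the described matching for sex, and sex and genotype cannot be told apart in the values below. In PEP-619WW no DC held Xist and 125 of 335 held Ddx3y, whereas 12 of the 36 PEP-WT DCs held Xist alone, 10 held Ddx3y alone and 1 held both. The libraries shared 31 barcode sequences. Among the DCs, 2 had a barcode that was also present in the other library, and 0 were DCs in both.

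Markers of other cells were checked as summed lists. Hepatocyte genes were at 0 CPM in PEP-WT DCs (7 of 7 genes at 0) and at 0.9 CPM in PEP-619WW DCs (6 of 7 at 0). Melanocytic genes stood at 33.8 and 16.2 CPM in the DCs, below the 176 and 72.4 CPM of the macrophage gate (barcodes with at least 5 UMIs of C1qa and C1qb). Macrophage genes stood at 557 CPM in PEP-WT DCs and 419.8 CPM in PEP-619WW DCs, against 19277 and 13665 CPM in that gate, and 27 of 36 PEP-WT and 25 of 335 PEP-619WW DCs held 1 to 4 UMIs of C1qa and C1qb. NK cell genes were at 0 CPM in PEP-WT DCs with 8 of 8 genes at 0, and at 137.7 CPM in PEP-619WW DCs. Erythroid genes stood at 6519 and 1.2 CPM, and 1 PEP-WT cDC1 barcode, with 1374 of its 5381 UMIs from haemoglobin genes, carried more than any other. The part of these transcripts in the genotype values below was not tested.

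In PEP-WT, DCs made up 0.377% of the barcodes (0.265 to 0.522, an exact 95% binomial interval), and in PEP-619WW 3.04% (2.73 to 3.38). In the first run the same limits gave 51 DCs among the 14821 PEP-WT barcodes (0.344%, 0.256 to 0.452) and 35 among the 8576 of PEP-619WW (0.408%, 0.284 to 0.567). The intervals of the genotypes were far apart in the second run and overlapped in the first. Whether the runs differ in this was not tested. Without any barcode holding a C1qa or C1qb UMI, 0.0943% remained in PEP-WT and 2.81% in PEP-619WW, and with at least 3 UMIs of the selecting genes 0.241% in PEP-WT and 2.08% in PEP-619WW. The libraries also differed in their other cells, because in the second run the macrophage gate took 60.95% of the PEP-WT library and 16.38% of the PEP-619WW library. A monocyte gate (at least 2 UMIs of Ly6c2, none of the 4 selecting genes and fewer than 5 of C1qa and C1qb) held 92 and 1245 barcodes. Fewer DCs and a larger number of other cells in the sort cannot be told apart from these shares.

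The 371 barcodes were divided by the rule into 3 groups. Barcodes with at least 1 UMI of Ccr7 formed the Ccr7+ group, those of the remainder with Xcr1 or Clec9a formed the cDC1 group, and the third group held the other DCs. The cDC1 group had 16 PEP-WT barcodes (44.4% of the DCs, 27.9 to 61.9) and 135 PEP-619WW barcodes (40.3%, 35.0 to 45.8). The Ccr7+ group had 15 PEP-WT barcodes (41.7%, 25.5 to 59.2) and 135 PEP-619WW barcodes (40.3%, 35.0 to 45.8). The other DCs were 5 (13.9%, 4.67 to 29.5) and 65 (19.4%, 15.3 to 24.1). Every interval overlapped its partner. With the barcodes of both kinds given to cDC1, the Ccr7+ shares became 25% and 33.1%, so that the order of the genotypes turned. In the first run, 38, 4 and 9 PEP-WT and 17, 3 and 15 PEP-619WW barcodes fell in the groups in the same order, so that Ccr7+ DCs were 7.84% (2.18 to 18.9) and 8.57% (1.8 to 23.1) there.

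**Figure D1:**
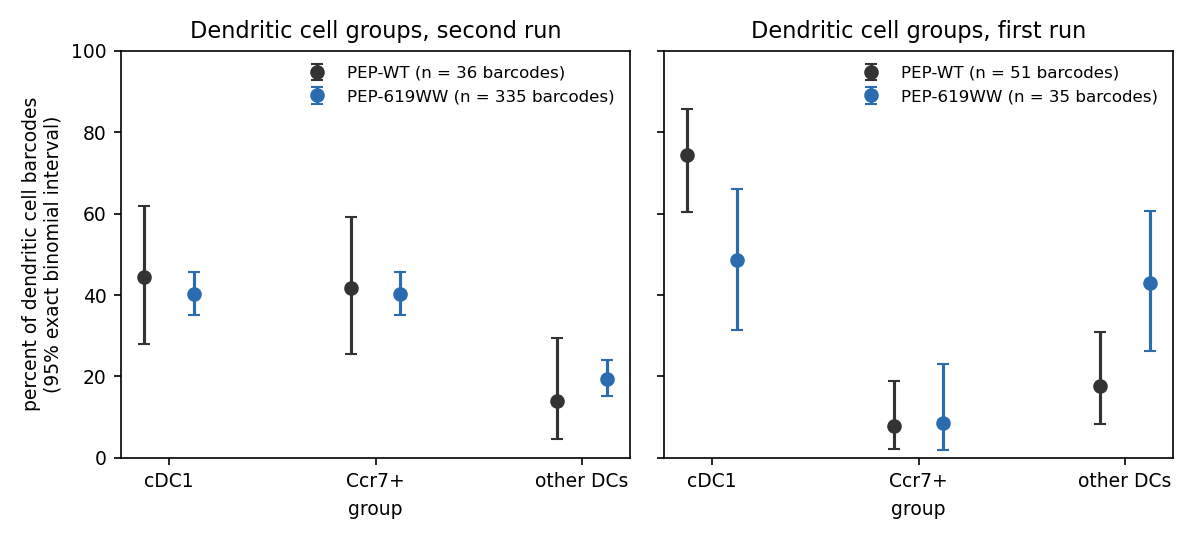
Share of DC barcodes (y axis, percent, with exact 95% binomial intervals) in the cDC1, Ccr7+ and other groups (x axis) for PEP-WT (black) and PEP-619WW (blue), second run at left and first run at right. In the second run the Ccr7+ share was 41.7% and 40.3%, and in the first run 7.84% and 8.57%.

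The limits cut through a continuum. A sum of exactly 2 UMIs of the 4 selecting genes was held by 119 of the DCs, and 216 barcodes that met the other limits had a sum of 1. The barcodes just inside had H2-Ab1 at 5359 CPM and Cst3 at 12389 CPM, and those just outside 6825 and 8116 CPM. Cd209a was at 417 CPM inside and 597 CPM outside. At the H2-Aa limit, 17 DCs held 10 to 14 UMIs, with Fscn1 at 1616, Ccl22 at 1657 and H2-Ab1 at 1059 CPM. The 29 barcodes with 5 to 9 UMIs that met the other limits had 2491, 2349 and 259 CPM and are outside the class II levels given below. Of the cDC1, 101 of 151 held both Xcr1 and Clec9a, 24 Xcr1 alone and 26 Clec9a alone. Ccr7 UMIs in the Ccr7+ group had a median of 16 and a maximum of 49, with at least 10 in 104 of 150 barcodes and exactly 1 in 9.

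The selecting genes had these levels. Flt3, the receptor for the growth factor that DC development needs, stood at 213 (151 to 291) CPM in PEP-WT and 232 (207 to 258) CPM in PEP-619WW among cDC1, and at 136 and 208 CPM in the Ccr7+ group. None of the 5 other DCs of PEP-WT held Flt3, and those of PEP-619WW had 137 (109 to 170.1) CPM. Zbtb46, a transcription factor of conventional DCs, stood at 38.2 and 59 CPM in cDC1, 93.1 and 86.3 CPM in the Ccr7+ group and 163 and 140.4 CPM in the other DCs of PEP-WT and PEP-619WW. H2-Aa, a chain of MHC class II, ranged from 5220 to 8018 CPM over the groups and genotypes. These values chose the barcodes and are a description.

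Genes outside the rule set the DCs apart from the 2 larger myeloid populations of the run in both genotypes. Of 11013 genes compared with the macrophage gate, 5.87% were at least 2-fold higher in DCs of both genotypes and 9.24% at least 2-fold lower, around median log2 ratios of -0.16 in PEP-WT and -0.17 in PEP-619WW. Of 14 genes of the core DC list, 11 were higher and 0 lower, the selecting genes among them by the rule. Cst3, the cystatin C gene, was at 19090 (18655 to 19532) CPM in PEP-WT and 19224 (19075 to 19373) CPM in PEP-619WW in DCs and at 1122 and 1769 CPM in the gate. Of 16 macrophage genes, 15 were lower, C1qa and C1qb by the gates, and Timd4, a receptor for dead cells, was higher, at 13 and 26.1 CPM against 0.277 and 0.146 CPM. Of 22 glycolysis and hypoxia genes 15 were lower in DCs and 0 higher, and of 20 lysosome genes 12 were lower and 4 higher. Ctsd, a lysosomal protease, was at 114 and 76.8 CPM in DCs and 3392 and 1784 CPM in macrophages. Among the leading genes were Cacna1s, a calcium channel subunit, at 57.2 and 61.5 CPM against 0.294 and 0.584 CPM, and Zfp366, a zinc finger regulator of DCs, at 33.8 and 48 CPM against 0.156 and 1.09 CPM.

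Against the monocyte gate, 5.1% of 7747 genes were at least 2-fold higher in DCs of both genotypes and 11.8% at least 2-fold lower, around median log2 ratios of -0.16 in PEP-WT and -0.24 in PEP-619WW. All 11 genes of the monocyte list were lower, Ly6c2 by the gate, and 11 of 14 core DC genes were higher, Flt3, Zbtb46 and H2-Aa by the gates. Of 22 cell cycle genes 17 were higher in DCs. Of 42 interferon-stimulated genes 30 were lower and 0 higher. Rsad2, which encodes the antiviral enzyme viperin, was at 5.2 and 36 CPM in DCs and 899.5 and 258 CPM in monocytes of PEP-WT and PEP-619WW. Plet1, a surface protein, was at 200.3 and 202 CPM in DCs and 0 and 0.811 CPM in monocytes.

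The cDC1 group was high in genes of the cDC1 list. Counts of genes between the 3 DC groups, here and below, are with genotypes summed, and most of those UMIs were of PEP-619WW. Relative to the other 2 groups, 16 of 19 compared cDC1 genes were at least 2-fold higher in cDC1, Xcr1 and Clec9a by the rule itself, and 0 lower, where 7.94% of all 4318 compared genes were higher and 11.9% lower. The median log2 ratio of the list was 2.75. Irf8, the transcription factor that sets cDC1 identity, was at 1941 (1745 to 2153) CPM in PEP-WT and 2160 (2083 to 2238) CPM in PEP-619WW. Single cDC1 barcodes held 8.04 to 30.2 UMIs per 10000 with a median of 19.9 in PEP-WT and 0 to 56.4 UMIs per 10000 with a median of 21.8 in PEP-619WW. Summed levels of Irf8 were 795 and 504 CPM in the Ccr7+ group and 32.6 and 85.2 CPM in the other DCs. Naaa, an acid amidase, was at 1423 (1256 to 1606) CPM in PEP-WT and 1832 (1761 to 1904) CPM in PEP-619WW in cDC1. Itgae, the integrin chain CD103, was at 294 and 245 CPM in cDC1 and at most 78.8 CPM in the other groups.

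Genes that led the cDC1 group by ratio in both genotypes included innate sensors. Tlr3, the sensor of double-stranded RNA, was at 104 (62.4 to 162) CPM in PEP-WT and 141 (122 to 162) CPM in PEP-619WW in cDC1. It was found in 0 of 15 and 1 of 135 Ccr7+ barcodes and in none of the 70 other DCs. Tlr11, the profilin sensor, was at 27.3 and 33.8 CPM. Rasgrp3, an activator of RAS, was at 43.6 and 40.3 CPM, and Ppt1, a lysosomal thioesterase, at 567 and 577 CPM. Wdfy4, which cDC1 need for cross-presentation, was at 425 and 763 CPM in cDC1 and at 65.2 and 234 CPM in the other DCs. Batf3 did not separate the groups in the same way, at 224 and 230.2 CPM in cDC1 and 222 and 262 CPM in the Ccr7+ group. Of 9 compared costimulatory ligands 8 were lower in cDC1, and of 28 genes of the Ccr7 program 27 were lower, Ccr7 by the rule. The share over all 4318 compared genes was 11.9% lower.

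**Figure D2:**
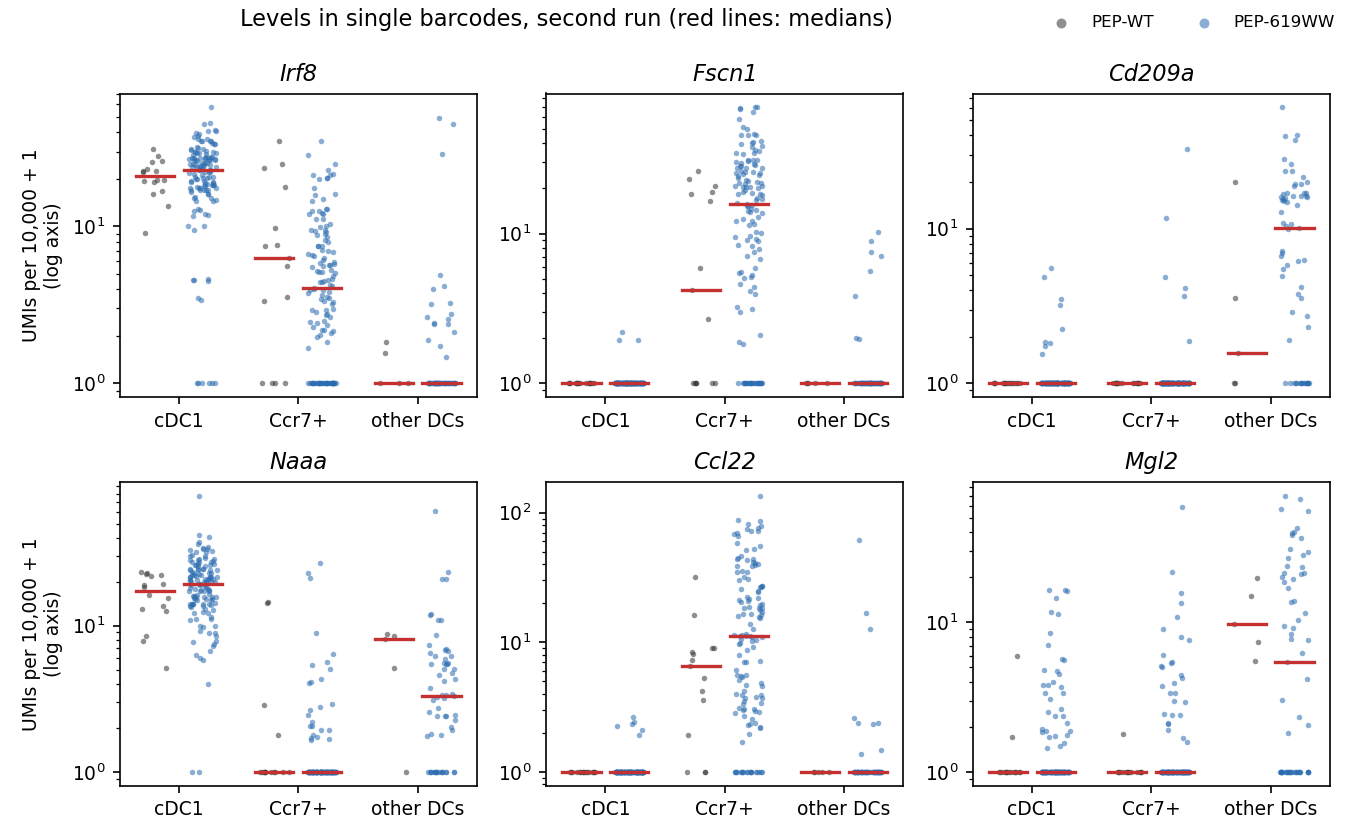
UMIs per 10000 plus 1 (y axis, log scale) of 6 genes in each DC barcode of the second run, by group (x axis) and genotype (PEP-WT black, PEP-619WW blue), with red lines at the medians. Irf8 and Naaa are highest among cDC1, Fscn1 and Ccl22 among Ccr7+ DCs, and Cd209a and Mgl2 among the other DCs, and barcodes at 0 lie on the baseline of 1.

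The cDC1 group also held most of the dividing DCs. With genotypes summed, 12 of 17 compared cell cycle genes were at least 2-fold higher in cDC1 than in the other groups and 0 lower. The shares over all 4318 compared genes were 7.94% higher and 11.9% lower. The summed list was at 7911 CPM in cDC1 and 8352 CPM in the other DCs of PEP-WT, and at 6121 and 3523 CPM in PEP-619WW. In the 5 other DCs of PEP-WT 1 barcode held 14 of the 16 UMIs of the mitosis gene Birc5. Mki67, the proliferation marker Ki-67, was at 191 (133 to 265) CPM in PEP-WT and 216 (193 to 242) CPM in PEP-619WW in cDC1 and at 35.8 and 13.4 CPM in the Ccr7+ group. At least 3 of 6 mitosis genes were found in 5 of 16 PEP-WT cDC1 (31.3%, 11.02 to 58.7) and in 28 of 135 PEP-619WW cDC1 (20.7%, 14.3 to 28.6). With every barcode thinned to 3000 UMIs and shallower ones left out, the shares were 31.3% of 16 and 16.03% of 131. Of the Ccr7+ DCs, 1 of 15 and 2 of 135 met this limit, and of the other DCs 1 of 5 and 3 of 65. The macrophage gate of PEP-WT held such barcodes at 25.2% and that of PEP-619WW at 3.98%, and the part of RNA from those cells in the DC shares was not tested.

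With genotypes summed, the Ccr7+ group had the widest departure from the rest of the DCs. Of 4318 genes, 11.3% were at least 2-fold higher than in the other 2 groups and 19.5% at least 2-fold lower. Every one of the 28 compared genes of the Ccr7 program was higher, Ccr7 by the rule itself, with a median log2 ratio of 5.01 against -0.26 over all compared genes. Fscn1, the actin bundler of DC protrusions, was at 974 (817 to 1152) CPM in PEP-WT and 1682 (1613 to 1753) CPM in PEP-619WW. Among cDC1 it was at 0 and 2.16 CPM. It was found in 9 of 15 PEP-WT and 111 of 135 PEP-619WW Ccr7+ barcodes. Il12b, the p40 chain of interleukin 12 and interleukin 23, was at 487 (378 to 617) CPM in PEP-WT and 331 (301 to 363) CPM in PEP-619WW, in 6 of 15 and 39 of 135 barcodes, and had no UMI in cDC1 (0 to 2.34 CPM over both genotypes) or in the other DCs (0 to 5.59 CPM). A single PEP-WT barcode held 50 of the 68 UMIs of Il12b, and without it PEP-WT was at 134 CPM, below PEP-619WW. Socs2, a brake on cytokine signals, was at 344 and 545 CPM in Ccr7+ DCs and 5.45 and 2.88 CPM in cDC1.

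Other leading genes of the Ccr7+ group were Nudt17, a nucleotide hydrolase gene, at 50.1 and 119.8 CPM, and Mir155hg, the host transcript of the microRNA miR-155, at 28.6 and 97.5 CPM. Scin, an actin-severing protein, was at 35.8 and 237 CPM. Slco5a1, a transporter gene, was at 28.6 and 46.1 CPM, and Stap2, a signalling adaptor, at 57.3 and 40.2 CPM. Apol7c, an apolipoprotein L family gene of DCs, was at 251 (174 to 348) CPM in PEP-WT and 102 (85.6 to 120.5) CPM in PEP-619WW, in 4 of 15 and 22 of 135 barcodes. Among cDC1 and other DCs, Scin did not pass 2.16 CPM in either genotype.

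Genes of antigen display differed by MHC class. With genotypes summed, 7 of 13 class II genes were at least 2-fold lower in Ccr7+ DCs, 1 was higher, and the median log2 ratio was -1.33. The shares over all 4318 compared genes were 19.5% lower and 11.3% higher. The genotypes differed in this. In PEP-WT the summed class II list was at 30306 CPM in Ccr7+ DCs, 39085 CPM in cDC1 and 29869 CPM in the other DCs. Ccr7+ DCs of PEP-WT were thus not the lowest group. In PEP-619WW the list was at 23397, 43692 and 42262 CPM in the same order. The H2-Aa minimum left out barcodes high in Fscn1 with lower H2-Ab1, as given above. Its effect on the class II levels was not tested. H2-Ab1, a class II chain, was at 5155 (4785 to 5546) CPM in PEP-WT and 3050 (2957 to 3145) CPM in PEP-619WW in Ccr7+ DCs and at 8140 and 9183 CPM in cDC1. Ciita, the master activator of class II genes, was at 64.4 and 103 CPM in Ccr7+ DCs, 278 and 434 CPM in cDC1 and 228 and 592 CPM in the other DCs. H2-Eb2 went the other way, at 107 and 84.1 CPM in Ccr7+ DCs and 0 and 3.6 CPM in cDC1. Of 18 class I genes 5 were higher and 2 lower. B2m, the light chain of class I, was at 2477 and 3351 CPM in Ccr7+ DCs and 1194 and 1007 CPM in cDC1.

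Genes of the NF-kappaB pathway, which drives DC maturation, were higher in Ccr7+ DCs in 15 of 19 cases and lower in 0, with a median log2 ratio of 1.89. The shares over all 4318 compared genes were 11.3% higher and 19.5% lower. Relb, a subunit of the non-canonical pathway, was at 322 (235 to 431) CPM in PEP-WT and 395 (362 to 430.1) CPM in PEP-619WW in Ccr7+ DCs and at 21.8 and 20.1 CPM in cDC1. Its partner Nfkb2 was at 165 and 203 CPM and 27.3 and 49.6 CPM, and Nfkb1 at 215 and 388 CPM and 70.9 and 82 CPM. The inhibitor Nfkbia was at 573 and 760.3 CPM in Ccr7+ DCs and 81.8 and 141 CPM in cDC1, and the inhibitor Nfkbie at 71.6 and 79.6 CPM and 16.4 and 29.5 CPM. Traf1, an adaptor of tumor necrosis factor receptors, was at 709 and 852 CPM in Ccr7+ DCs and 65.4 and 134 CPM in cDC1.

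Promoters of both inhibitors are shown because both genes were among the 15 and their windows hold a kappaB motif, the letters that NF-kappaB dimers are known to bind. The windows are from RefSeq on GRCm38.p6 and run from 250 bases before to 50 bases after the start of the gene, 300 bases in all, 5′ to 3′ on the strand of the gene, with matches in capitals. The window of Nfkbia lies at chr12:55492598-55492897, minus strand, and that of Nfkbie at chr17:45555450-45555749, plus strand.
Nfkbia: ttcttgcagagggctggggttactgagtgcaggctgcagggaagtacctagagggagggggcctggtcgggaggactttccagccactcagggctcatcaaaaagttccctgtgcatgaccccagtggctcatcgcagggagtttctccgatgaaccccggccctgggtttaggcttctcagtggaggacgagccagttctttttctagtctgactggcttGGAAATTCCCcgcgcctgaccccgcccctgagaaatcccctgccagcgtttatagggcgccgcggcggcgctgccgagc
Nfkbie: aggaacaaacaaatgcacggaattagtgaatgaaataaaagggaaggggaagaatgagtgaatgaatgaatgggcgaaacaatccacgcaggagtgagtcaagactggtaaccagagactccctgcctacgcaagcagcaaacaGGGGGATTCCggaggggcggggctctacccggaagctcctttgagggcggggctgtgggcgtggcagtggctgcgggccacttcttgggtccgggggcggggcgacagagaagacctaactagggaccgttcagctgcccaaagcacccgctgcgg
A kappaB match on either strand was found in 8 of 17 pathway genes with a window (47.1%), in 1 of 22 genes of the Ccr7 program (4.55%) and in 9.55% of all 27025 genes. The match is a description of the letters in this window.

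Ligands for T cells were compared between groups and genotypes because the study measured CD86 and PD-L1 on DC subsets. By flow cytometry it reported less PD-L1 on PEP-619WW conventional DCs with and without CD8α, and more CD86 on those without. The values here are RNA, and the groups are not the gates of that study. Of 9 costimulatory ligands 7 were at least 2-fold higher in Ccr7+ DCs and Cd48 was lower. Of 13 inhibitory genes 7 were higher and 3 lower. The shares over all 4318 compared genes were 11.3% higher and 19.5% lower, and the 3 lower inhibitory genes lie near the latter. Cd86, a ligand of CD28 and CTLA4, was at 272 (192 to 373) CPM in PEP-WT and 242 (217 to 270.3) CPM in PEP-619WW in Ccr7+ DCs. In cDC1 it was at 92.7 (54 to 148) CPM in PEP-WT and 91.4 (76.2 to 109) CPM in PEP-619WW, and in the other DCs at 32.6 (3.95 to 118) CPM in PEP-WT and 55.2 (38 to 77.5) CPM in PEP-619WW. Cd80, its relative, was at 57.3 (24.7 to 113) CPM in PEP-WT and 122 (104 to 142) CPM in PEP-619WW in Ccr7+ DCs. Cd274, which encodes PD-L1, was at 251 (174 to 348) CPM in PEP-WT and 253 (227 to 281) CPM in PEP-619WW in Ccr7+ DCs. It was found in 12 of 15 and 109 of 135 of these barcodes. In cDC1 Cd274 was at 16.4 (3.37 to 47.8) CPM in PEP-WT and 15.1 (9.35 to 23.1) CPM in PEP-619WW. Among the other DCs it was at 0 (0 to 60.2) CPM in PEP-WT and 73.5 (53.4 to 98.7) CPM in PEP-619WW.

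Ccr7+ DCs thus had the highest level of Cd274 and Cd86 among the DC groups in both genotypes, and the intervals of the genotypes overlapped in each group where both had UMIs. In Ccr7+ DCs the log2 ratio of PEP-619WW to PEP-WT was 0.01 (-0.49 to 0.56) for Cd274 and -0.17 (-0.65 to 0.36) for Cd86. In cDC1 it was -0.11 (-1.86 to 2.27) and -0.02 (-0.76 to 0.80). The interval for Cd274 in cDC1 is wide because PEP-WT had 3 UMIs there. Macrophages had Cd274 at 57 and 79.6 CPM and monocytes at 170.2 and 96.6 CPM. Pdcd1lg2, which encodes PD-L2, was at 115 and 112 CPM in Ccr7+ DCs, and Cd40, the receptor through which helper T cells license DCs, at 143 (87.5 to 221) CPM in PEP-WT and 225 (201 to 252) CPM in PEP-619WW. Cd200, a ligand that dampens myeloid cells, was at 107 (60.1 to 177) CPM in PEP-WT and 229.9 (205 to 257) CPM in PEP-619WW. Havcr2, the receptor TIM-3, was instead at 76.3 and 65.5 CPM in cDC1 and 7.16 and 5.95 CPM in Ccr7+ DCs.

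**Figure D3:**
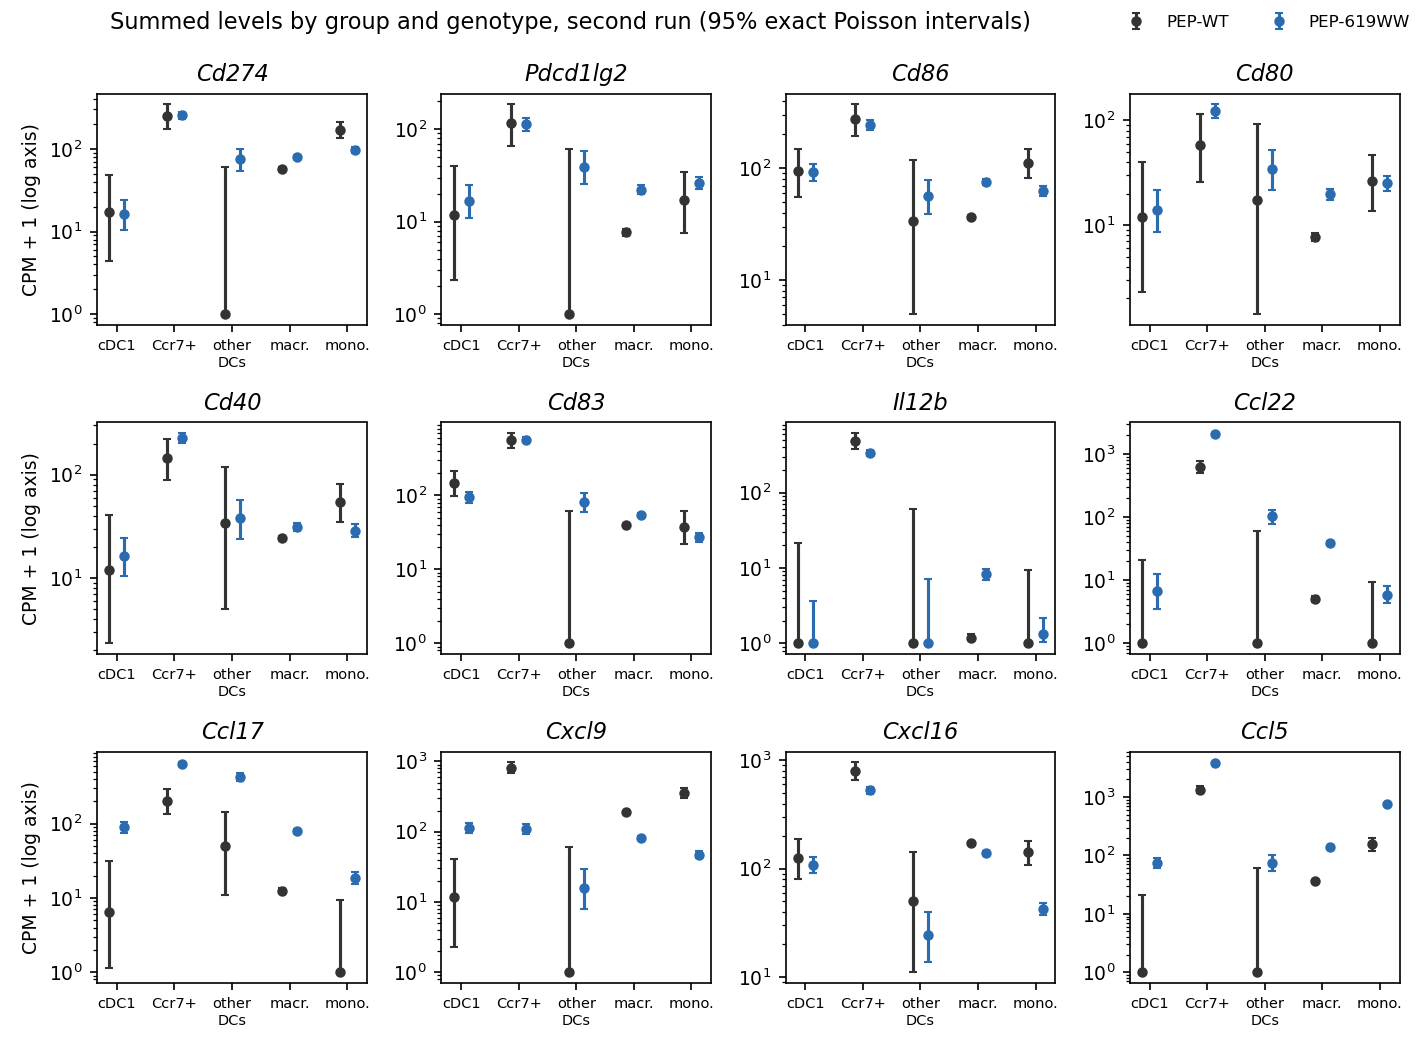
Summed levels (y axis, CPM plus 1, log scale, with exact 95% Poisson intervals) of 12 genes for T cell ligands, cytokines and chemokines in the 3 DC groups and the macrophage and monocyte gates (x axis), PEP-WT black and PEP-619WW blue. Cd274 and Cd86 are highest in Ccr7+ DCs among the DC groups in both genotypes, and Ccl22, Ccl17 and Ccl5 lie higher in PEP-619WW than in PEP-WT Ccr7+ DCs.

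Chemokine levels lay apart between groups and, for some genes, between genotypes. Of 13 chemokine genes 7 were at least 2-fold higher in Ccr7+ DCs than in the other groups and 2 lower. The shares over all 4318 compared genes were 11.3% higher and 19.5% lower. Ccl22, a ligand of CCR4 on T cells, was at 630 (505 to 776) CPM in PEP-WT and 2075 (1998 to 2153) CPM in PEP-619WW. Its log2 ratio between genotypes was 1.72 (1.41 to 2.04), against a median of 0.21 over all genes compared in this group. It was found in 12 of 15 and 116 of 135 barcodes, which held 0 to 30.7 UMIs per 10000 with a median of 5.53 in PEP-WT and 0 to 134 UMIs per 10000 with a median of 10.1 in PEP-619WW, so that the single barcodes of the genotypes overlapped. Ccl17, the other ligand of CCR4, was at 200.5 (133 to 289.7) CPM in PEP-WT and 630.1 (588 to 674) CPM in PEP-619WW. Ccl5, a chemokine that attracts T cells, was at 1332 (1147 to 1537) CPM in PEP-WT and 3861 (3757 to 3967) CPM in PEP-619WW, and 1 barcode held 93 of the 186 UMIs of PEP-WT. In the macrophage gate the same 3 genes were also higher in PEP-619WW, Ccl22 at 4.06 and 38 CPM, Ccl17 at 11.5 and 77.6 CPM and Ccl5 at 35.5 and 137 CPM. Cxcl16, a ligand of CXCR6, was at 802 (660.3 to 965) CPM in PEP-WT and 529.7 (492 to 570) CPM in PEP-619WW in Ccr7+ DCs. Cxcl9, a ligand of CXCR3, was at 816 (673 to 980.5) CPM in PEP-WT and 109 (92.4 to 128) CPM in PEP-619WW, and 1 PEP-WT barcode held 50 of the 114 UMIs behind the former.

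Ccr7+ DCs differed among themselves by the lectin and cDC1 genes they held. Xcr1 or Clec9a without Cd209a, Clec10a or Mgl2 was found in 24 of 150, any of those lectins without Xcr1 or Clec9a in 26, both kinds in 6 and neither in 94. Il12b was at 777 CPM (664 to 903) in the first set, 16.3 CPM (5.29 to 38) in the second and 347 CPM (309 to 388) in those with neither. In PEP-619WW 2 barcodes held 71 and 56 of the 164 UMIs of the first set, and in PEP-WT, at 77.3 CPM in the first set and 744 CPM in those with neither, 1 barcode held 50 of the 56 UMIs of the latter. Ccl17 was at 425, 1147 and 405 CPM in the same order, and Fscn1 at 684, 1239 and 2097 CPM. Sirpa, a receptor of cDC2, was at 18.5, 143 and 71.8 CPM. Cadm1, an adhesion molecule of cDC1, was at 74, 3.26 and 4.49 CPM. S100a4, a calcium-binding protein, was at 541, 2620 and 1802 CPM. These genes were chosen after their values were seen, and Batf3 of the cDC1 list was at 199, 248 and 291 CPM. Cadm1 was highest in the set with Xcr1 or Clec9a, and Ccl17, Sirpa and S100a4 in the set with lectins. Cd274 lay closer together, at 213, 202 and 288 CPM. The sets rest on 1 or more UMIs of sparse genes, 6 of the 15 PEP-WT Ccr7+ barcodes held Xcr1 or Clec9a, and their genotypes were summed. The set with lectins alone held 0 PEP-WT and 26 PEP-619WW barcodes, so its values are of PEP-619WW only. The set with Xcr1 or Clec9a alone held 5 and 19, and those with neither 9 and 85.

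The other DCs carried genes of type 2 conventional DCs (cDC2). Of 13 compared cDC2 genes 10 were at least 2-fold higher than in the other 2 groups and 0 lower, where 7.09% of 4318 genes were higher and 7.87% lower, and the median log2 ratio was 2.06 against 0.17 over all compared genes. At least 1 UMI of Cd209a, Clec10a or Mgl2 was held by 60 of 70, and of the 10 without, 5 held Fscn1 or Ccl22. Cd209a, a DC-SIGN family lectin, was at 424 (277 to 622) CPM in PEP-WT and 991 (913 to 1074) CPM in PEP-619WW, and 1 PEP-WT barcode held 23 of the 26 UMIs, without which PEP-WT was at 61 CPM. Mgl2, the lectin CD301b, was at 1060 (818 to 1351) CPM in PEP-WT and 1743 (1639 to 1852) CPM in PEP-619WW. Single barcodes held 4.49 to 18.9 UMIs per 10000 with a median of 8.79 of it in PEP-WT and 0 to 69.2 UMIs per 10000 with a median of 4.43 in PEP-619WW, so the medians had the opposite order from the summed levels. Sirpa was at 359 and 274 CPM in these DCs and 0 and 15.1 CPM in cDC1. Irf4, a transcription factor of cDC2, was at 32.6 and 70.2 CPM in these DCs and 0 and 4.32 CPM in cDC1. Cdh1, the adhesion molecule E-cadherin, was at 65.2 (17.8 to 167) CPM in PEP-WT and 169 (138 to 205) CPM in PEP-619WW.

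Genes of monocytes were part of this profile. Of 7 compared monocyte genes 6 were higher in the other DCs than in cDC1 and Ccr7+ DCs together, where 7.09% of all 4318 compared genes were. Ccr2, the receptor that draws monocytes from the blood, was at 604 and 567 CPM in these DCs and 704 and 1438 CPM in the monocyte gate. Csf1r, the receptor of macrophage colony-stimulating factor, was at 48.9 and 104 CPM against 198 and 317 CPM. Ly6c2 itself was in 0 of 5 and 9 of 65 barcodes, and the summed monocyte list stood at 3834 and 3515 CPM in these DCs against 15015 and 21730 CPM in the gate. The other DCs of PEP-WT are 5 barcodes, and 1 of them can carry a value.

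Ptpn22, the gene that carries the allele, was transcribed in all 3 groups. In cDC1 it was at 54.5 (26.1 to 100.3) CPM in PEP-WT and 56.8 (45 to 70.8) CPM in PEP-619WW. In Ccr7+ DCs it was at 21.5 (4.43 to 62.8) CPM in PEP-WT and 11.2 (6.25 to 18.4) CPM in PEP-619WW. In PEP-WT 1 barcode of the Ccr7+ DCs held 2 of the 3 UMIs, and without it the level was 7.65 CPM, below that of PEP-619WW. In the other DCs it was at 48.9 (10.1 to 143) CPM in PEP-WT and 53.5 (36.6 to 75.5) CPM in PEP-619WW, and 1 PEP-WT barcode held 2 of the 3 UMIs. Over all DCs the log2 ratio between genotypes was -0.14 (-0.89 to 0.71). A count of the gene does not show which allele was read, so it does not check the labels. Of 9 genes of PEP and its partners, 7 were at least 2-fold lower in Ccr7+ DCs than in the other groups and 0 higher. The shares over all 4318 compared genes were 19.5% lower and 11.3% higher. Csk, the kinase that PEP binds, was at 98.1 and 124 CPM in cDC1 and 35.8 and 48.4 CPM in Ccr7+ DCs. Lyn, a SRC family kinase, was at 109 and 163 CPM and 50.1 and 65.5 CPM.

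Between genotypes, 9.52% of 4318 genes compared over all DCs were at least 2-fold higher in PEP-619WW and 0.787% at least 2-fold lower. The whole distribution was shifted, with a median log2 ratio of 0.23, and scaling the median to 1 turned 411 and 34 genes into 233 and 66. Of the 411 genes, 287 rested on 10 or fewer UMIs in PEP-WT, where the summed depth was 8.67 times lower. Within cDC1 alone 8.31% of 2083 genes were higher and 1.25% lower, and within Ccr7+ DCs 13.1% of 1850 were higher and 1.03% lower. Without barcodes that held a C1q UMI, 650 genes were higher and 124 lower. That setting dropped 27 of the 36 PEP-WT DCs and 25 of the 335 PEP-619WW DCs, so few PEP-WT barcodes were left behind these counts. With 1 library per genotype these counts have no replicate check.

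Lists of DC identity were set against this background. Over all DCs, 0 of 19 cDC1 genes, 13 class II genes and 18 class I genes were at least 2-fold apart in either direction. Within cDC1 the class I gene Tapbp, the peptide-loading factor tapasin, was higher in PEP-619WW, at 119.9 and 248 CPM. Within Ccr7+ DCs 2 of 7 cDC1 genes were lower, Cd24a at 236 and 60.3 CPM and Naaa at 172 and 78.9 CPM. A single PEP-WT barcode held 12 of the 24 UMIs of Naaa and 1 held 15 of the 33 of Cd24a, without which PEP-WT was at 91.8 CPM and 138 CPM. Of 14 core DC genes 1 was higher in PEP-619WW, Bcl11a, a transcription factor. Of 13 cDC2 genes 6 were higher and 0 lower, with a median log2 ratio of 0.72. Of 28 genes of the Ccr7 program 9 were higher and 1, Apol7c, lower, and within Ccr7+ DCs 6 were higher and the same 1 lower. Over all DCs and within Ccr7+ DCs Apol7c was less than 2-fold apart without the PEP-WT barcode that held 15 of the 35 UMIs in Ccr7+ DCs. The 6 were Tnfrsf9, Ccl22, Ccl17, Ccl5, Nudt17 and Cd200. Tnfrsf9, the costimulatory receptor 4-1BB, was at 14.3 (1.73 to 51.7) CPM in PEP-WT and 162 (141 to 185) CPM in PEP-619WW in Ccr7+ DCs. Of 25 interferon-stimulated genes 7 were higher in PEP-619WW DCs and 1, Ly6a, lower. Ly6a, a surface antigen, was at 122 and 56.1 CPM, but 1 PEP-WT barcode held 32 of the 47 UMIs, and without it PEP-WT was at 41 CPM, below PEP-619WW. In Ccr7+ DCs Ly6a was at 28.6 and 72.9 CPM. Ifit1, an RNA-binding antiviral gene, was at 0 (0 to 9.6) CPM in PEP-WT and 35.1 (29 to 42.1) CPM in PEP-619WW.

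The genes with the largest ratio in the same direction in all 3 groups included genes known from neutrophils and killer lymphocytes. Without the PEP-619WW barcode with most of their UMIs, 10 of the 10 kept the direction over all DCs and 4 in each of the 3 groups, Ms4a6b, Cpne1, Slc25a1 and Mindy2. The genes were picked for these ratios. Ms4a6b had no PEP-WT UMI in cDC1 and the other DCs, Cpne1 none in the other DCs and Slc25a1 none in Ccr7+ DCs. Those ratios are bounds with 0 read as 3 counts, and that of Cpne1 was then 0.0099 in log2. Mindy2 had 1 PEP-WT UMI in each group. Cxcl2, a neutrophil chemokine, was at 2.6 (0.0659 to 14.5) CPM in PEP-WT and 124 (113 to 137) CPM in PEP-619WW. In each group of PEP-619WW 1 barcode held most of its UMIs, 116 of the 122 in cDC1, 56 of the 68 in Ccr7+ DCs and 173 of the 225 in the other DCs. S100a9, an alarmin of neutrophils and monocytes, was at 2.6 (0.0659 to 14.5) CPM in PEP-WT and 70.5 (61.8 to 80.1) CPM in PEP-619WW. In the monocyte gate S100a9 was at 4005 and 1232 CPM, and the whole neutrophil list of 8 genes stood at 15.6 CPM with 5 genes at 0 in PEP-WT DCs and 150.6 CPM with 1 at 0 in PEP-619WW DCs. Gzma, a protease of killer lymphocytes, was at 0 (0 to 9.6) CPM in PEP-WT and 68.4 (59.8 to 77.9) CPM in PEP-619WW, where the monocyte gate had 526 CPM. It was found in 15 of 335 of these DCs. The part of RNA from other cells in these ratios was not tested. Cpne1, a calcium-dependent membrane-binding protein, was at 7.8 (1.61 to 22.8) CPM in PEP-WT and 50.4 (43.1 to 58.6) CPM in PEP-619WW. Acsl1, a fatty acid activating enzyme, was at 5.2 and 30.6 CPM, and Slc25a1, the mitochondrial citrate carrier, at 7.8 and 43.2 CPM. In the macrophage gate Cpne1 was at 22 and 37.9 CPM, Acsl1 at 27.5 and 20.6 CPM and Slc25a1 at 23.4 and 27.8 CPM.

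Genes with a lower level in PEP-619WW DCs in all 3 groups included haemoglobins, histones and mitosis genes. For the haemoglobins Hbb-bs and Hba-a2 the direction outside cDC1 rests on few counts. Each had 1 PEP-WT UMI in Ccr7+ DCs and 2 in the other DCs. Of the 10 named by the rule, 10 kept the direction over all DCs without the PEP-WT barcode with most of their UMIs. Only 4 kept it in each of the 3 groups, AY036118, Lpl, Hist1h1e and Birc5. For 2 of these few UMIs stand behind it. Lpl had 2 PEP-WT UMIs in cDC1, and its log2 ratio in Ccr7+ DCs was then -0.16. For Birc5, 1 PEP-WT barcode held 6 of the 9 UMIs in Ccr7+ DCs and 1 held 14 of the 16 in the other DCs. Hbb-bs, a haemoglobin chain, was at 3767 and 0.6 CPM, and 3 of 16 PEP-WT cDC1 held it, the barcode described above among them. AY036118, a transcript whose reads may be shared with ribosomal RNA repeats, was at 981 (884 to 1085) CPM in PEP-WT and 106 (94.9 to 117) CPM in PEP-619WW and was lower in PEP-619WW in the macrophage gate too, at 611 and 125 CPM. Lpl, lipoprotein lipase, was at 119.7 (87.6 to 159.6) CPM in PEP-WT and 21.6 (16.9 to 27.2) CPM in PEP-619WW, and among the other DCs at 636 and 68.5 CPM. A single one of the 5 PEP-WT barcodes there held 34 of the 46 UMIs of all PEP-WT DCs, which without it were at 31.9 CPM. Hist1h1e, a linker histone, was at 249.7 (202 to 305) CPM in PEP-WT and 52.2 (44.7 to 60.6) CPM in PEP-619WW in DCs and at 164 and 41.3 CPM in the gate. Birc5, the mitosis protein survivin, was at 182 (142 to 230.1) CPM in PEP-WT and 62.7 (54.5 to 71.8) CPM in PEP-619WW in DCs and 137 and 32.5 CPM in the gate. Of 17 cell cycle genes 5 were lower in PEP-619WW DCs and 1 higher, where 0.787% of all 4318 compared genes were lower and 9.52% higher. Without the haemoglobin-rich barcode 405 genes were higher and 35 lower. Haemoglobin RNA remained in other PEP-WT barcodes, and Hbb-bs was still at 1749 CPM without the barcode with most of its UMIs.

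**Figure D4:**
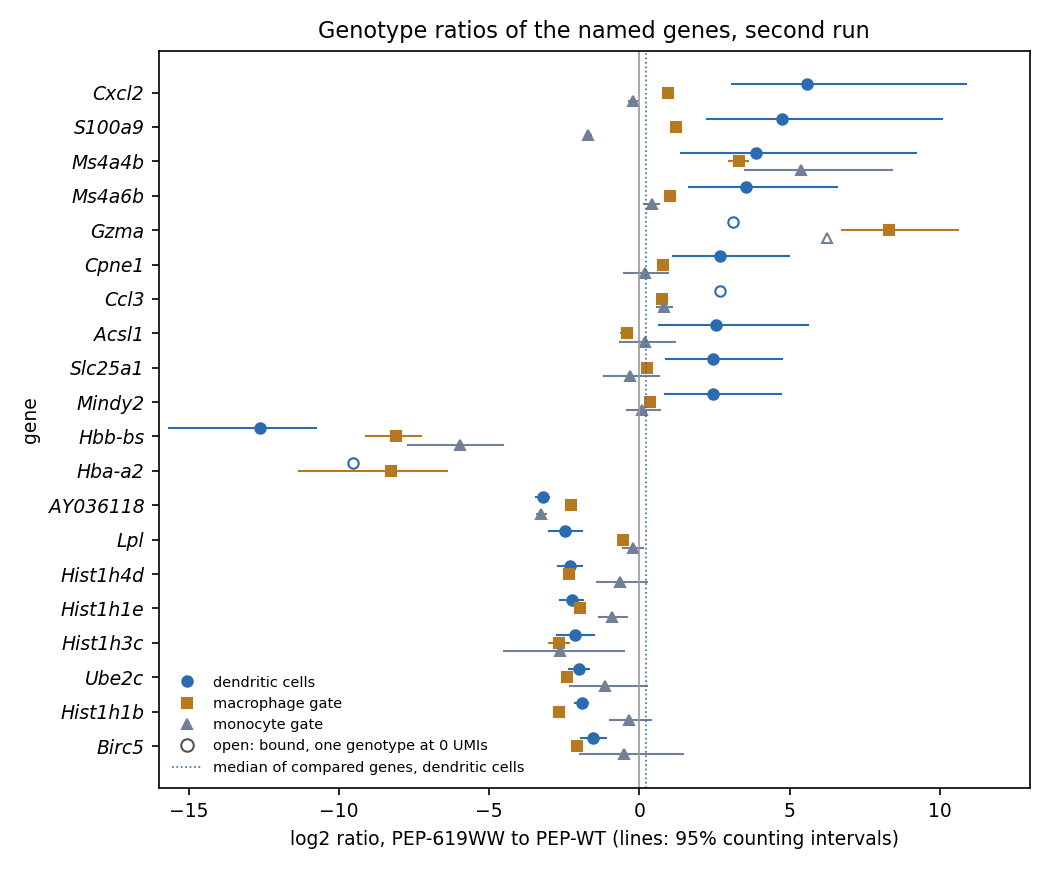
Log2 ratio of PEP-619WW to PEP-WT (x axis, with 95% counting intervals as lines, cut at the plot edge) for the 10 named genes higher and the 10 lower in all 3 DC groups (y axis), in DCs (blue circles), the macrophage gate (squares) and the monocyte gate (triangles). Open symbols are bounds where 1 genotype had no UMI, the dotted line is the DC median of 0.23, and AY036118 and the histone genes lie left of 0 in DCs and in the macrophage gate.

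DCs of the second run were last compared with those that the same limits gave in the first run, in each genotype. Of 1215 genes, 3.95% were at least 2-fold higher in the second run in both genotypes and 5.93% lower, 48 and 72 genes, or 67 and 54 with the median log2 ratio of each genotype, -0.25 in PEP-WT and -0.11 in PEP-619WW, set to 0. Of 11 compared genes of the Ccr7 program 9 were higher, where the share of Ccr7+ barcodes differed as given above. Ccr7 was at 557 and 708 CPM in the second run and 8.9 and 44.1 CPM in the first, where 1 PEP-619WW barcode held 10 of the 13 UMIs. Fabp5, a fatty acid carrier, was at 2427 and 2097 CPM in the second run and 157 and 13.6 CPM in the first. A second-run PEP-WT barcode held 485 of the 933 UMIs of Fabp5, and without it PEP-WT was at 1234 CPM, below PEP-619WW. Cd63, a tetraspanin of endosomes, was at 273 and 341 CPM against 14.2 and 3.39 CPM. Igkc, an immunoglobulin chain made by B cells, was at 0 and 3 CPM in the second run and 1404 and 719.6 CPM in the first, where 1 PEP-WT barcode held 555 of the 789 UMIs, and the B cell list was at 44.2 and 74.4 CPM against 1600 and 1039 CPM. The monocyte list was at 2016 and 1760 CPM against 9996 and 7488 CPM.

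Interferon-inducible genes were lower in the second run. Of 16 compared interferon-stimulated genes 10 were at least 2-fold lower in both genotypes and 0 higher, and of 8 targets of interferon gamma 4 were lower and 0 higher. The shares over all 1215 compared genes were 5.93% lower and 3.95% higher. In cDC1 alone, without the Ccr7+ and other groups, 9 of 12 interferon-stimulated genes were lower and 0 higher, with 14 higher and 31 lower of all 757 genes. Genes of other cells were lower there too. The monocyte genes Ly6c2 and Plac8 were at 27.3 and 720 CPM in PEP-WT against 1230 and 3302 CPM in the first run. In PEP-619WW they were at 21.6 and 417 against 559 and 4457 CPM. Igkc was at 0 and 3.6 against 1759 and 657 CPM. The part of RNA from other cells in these levels was not tested. In PEP-WT cDC1 Ly6a was at 179.9 CPM in the second run against 1363 CPM in the first, where 1 second-run barcode held 32 of the 33 UMIs and the level without it was 6.08 CPM, and in PEP-619WW cDC1 at 29.5 CPM in the second run against 746 CPM in the first. Isg15, a ubiquitin-like protein, was at 21.8 CPM in the second run against 550.3 CPM in the first in PEP-WT and at 84.9 CPM in the second run against 319.6 CPM in the first in PEP-619WW. Bst2, the virion tether tetherin, was at 142 CPM in the second run against 716 CPM in the first in PEP-WT and 204 CPM in the second run against 568 CPM in the first in PEP-619WW. Gbp2, a guanylate-binding GTPase, was at 10.9 CPM in the second run against 365 CPM in the first in PEP-WT and 11.5 CPM in the second run against 178 CPM in the first in PEP-619WW. Irf7, the regulator of interferon production, was at 49.1 CPM in the second run against 464 CPM in the first in PEP-WT and 54.7 CPM in the second run against 231 CPM in the first in PEP-619WW. Irf8 in PEP-WT cDC1 was at 1941 CPM in the second run against 1562 CPM in the first, and in PEP-619WW cDC1 at 2160 CPM in the second run against 1722 CPM in the first. The first-run libraries held no Ddx3y UMI, with Xist at 826 CPM in PEP-WT and 803 CPM in PEP-619WW, unlike the second-run libraries described above. The sources used here do not describe the first run, so run, mice, sex and tissue cannot be told apart.

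**Figure D5:**
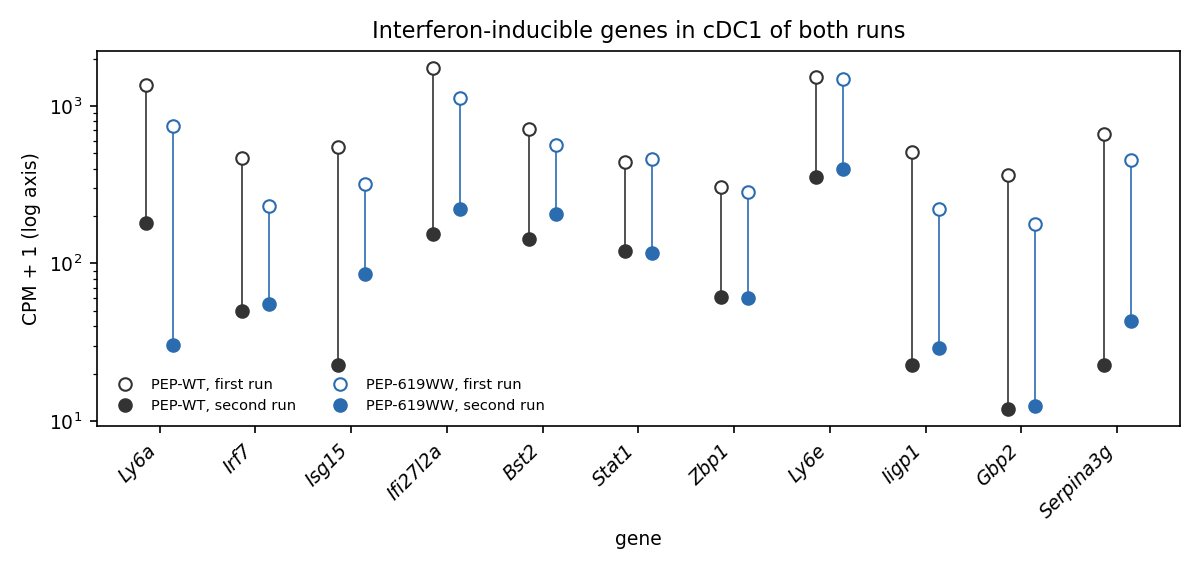
Levels (y axis, CPM plus 1, log scale) of 11 interferon-inducible genes (x axis) in cDC1 of the first run (open circles) and the second run (filled circles), PEP-WT black and PEP-619WW blue, joined by lines. The filled circle lies under the open one for each gene and genotype.

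Promoters of 2 of these genes are printed because many interferon-stimulated genes carry the interferon-stimulated response element, searched here on both strands as 2 GAAA blocks with any 2 bases between them. The windows are of the same kind as above, at chr4:156200769-156201068, minus strand, for Isg15, and at chr8:71537423-71537722, minus strand, for Bst2, with overlapping matches merged in capitals.
Isg15: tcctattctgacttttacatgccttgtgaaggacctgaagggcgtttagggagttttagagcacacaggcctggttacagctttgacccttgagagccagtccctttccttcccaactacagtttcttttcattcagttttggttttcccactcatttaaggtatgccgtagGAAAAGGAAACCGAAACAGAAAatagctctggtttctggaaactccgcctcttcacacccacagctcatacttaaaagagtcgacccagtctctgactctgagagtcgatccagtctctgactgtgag
Bst2: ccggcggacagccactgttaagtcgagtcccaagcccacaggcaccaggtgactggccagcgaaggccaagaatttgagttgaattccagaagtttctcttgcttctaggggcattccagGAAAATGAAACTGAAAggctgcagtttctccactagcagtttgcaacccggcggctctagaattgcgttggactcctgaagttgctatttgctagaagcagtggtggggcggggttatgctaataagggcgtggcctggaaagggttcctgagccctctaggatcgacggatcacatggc
The letters were found in 18 of 33 interferon-stimulated genes with a window (54.5%), in 11 of 16 interferon gamma targets (68.8%) and in 3.99% of all 27025 genes. The windows of the Ccr7 program held them in 2 of 22 genes (9.09%).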

How the data were processed

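Per the labels and the deposited files, the values were UMI counts, whole numbers per gene and barcode, that the authors made from 10x Genomics 3′ v3 libraries. Cell Ranger did the alignment and counting. Its version is 6.0.0 in the submitters' processing notes, which name the mm10 build, and the study's methods give another version. Each table held 32285 genes, and 32158 identifiers matched a symbol in the reference names. No filter was put on genes, mitochondrial share or barcodes, and no doublet caller was run. The rule leaves out barcodes with B cell, T cell, plasmacytoid DC or C1q-high counts, and an alternative dropped the deepest barcodes. The DCs, their groups and all 38 gene lists were chosen with earlier results of these data known, so no list gives independent support.

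UMIs were summed by genotype, run and group and divided by the summed total as CPM. For counts of genes between the 3 DC groups both genotypes were added together, 384395 UMIs of PEP-WT and 3332617 of PEP-619WW. A gene was compared where it had at least 100 UMIs over both sides of a comparison, and in each genotype for the runs. A sum of 0 was read as 3 counts in a ratio, which then is a bound. Intervals at 95% are exact Poisson for CPM, Clopper-Pearson for shares and exact conditional binomial for ratios. They cover counting error only, since barcodes of 1 pooled library are not replicates, and no test between genotypes or runs was possible. Genes named were the 12 with the largest ratio over the other groups, at least 2-fold in both genotypes and with at least 50 UMIs, the 10 with the largest genotype ratio in either direction with the same sign in all 3 groups, the 10 with the largest run and gate ratios, the selecting genes, and members of the lists. Promoter windows came from RefSeq. The ratio was tested on simulated Poisson counts, where its interval held the true value for 96.09% of 4118 genes without a difference. Those counts had no spread between barcodes, so the test does not cover values set by 1 barcode. Scripts ran under python 3.11.15 and used pandas 2.3.3, scipy 1.17.1, numpy 2.4.6 and, for figures, matplotlib 3.10.9.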

Additional observations from a re-analysis of the deposited data

Results flagged for a closer look

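Ratios between genotypes pointed in opposite directions in cDC1 and Ccr7+ DCs, by at least 2-fold in each, for 3 of 1393 genes compared in both groups. The difference between the groups was not tested. Cebpb, a transcription factor of myeloid cells, had a log2 ratio of PEP-619WW to PEP-WT of -1.57 in cDC1 and 3.63 in Ccr7+ DCs. Its UMIs in PEP-WT were 44 in cDC1, of which 1 barcode held 30, and 1 in Ccr7+ DCs, and in PEP-619WW they were 112 and 119. Cxcl9, a chemokine for CXCR3, had log2 ratios of 3.36 in cDC1 and -2.90 in Ccr7+ DCs. It had 2 UMIs in PEP-WT cDC1 and 114 in PEP-WT Ccr7+ DCs, of which 1 barcode held 50. Ccl6, a chemokine of myeloid cells, had log2 ratios of -3.62 in cDC1 and 2.28 in Ccr7+ DCs. Of its 131 UMIs in PEP-WT cDC1, 1 barcode held 125, and PEP-WT Ccr7+ DCs held 5.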

How the results depend on the processing

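Of the single genes, Ly6a between genotypes turned from a log2 ratio of -1.12 to 0.45 without the PEP-WT barcode with most of its UMIs and 0.30 without the deepest barcodes. Cxcl9 turned from -1.69 to 1.21 without any C1q UMI and 0.15 as a mean over the groups. Leaving out C1q UMIs dropped 27 of the 36 PEP-WT DCs, here and in the counts below. The share of DCs fell under a sum of at least 3 UMIs of the selecting genes to 0.241% in PEP-WT and 2.08% in PEP-619WW. Without any C1qa or C1qb UMI it fell to 0.0943% in PEP-WT, with 2.81% in PEP-619WW. With barcodes thinned to 3000 UMIs and shallower ones left out, it was 2.19% in PEP-619WW. The shallower barcodes also left the total, so 2.19% is a share of the deeper barcodes only. The cDC1 share became 65.2% and 54.1% under the sum of 3. In PEP-619WW it was 33.7% with at least 2 UMIs of Xcr1 and Clec9a, 47.5% when barcodes of both kinds were given to cDC1 and 31.1% after thinning. The Ccr7+ share became 25% and 33.1% when barcodes of both kinds were given to cDC1, which turned the order of the genotypes. The other 39 of 50 shares moved within the interval of the value given. Genes at least 2-fold higher and lower in PEP-619WW numbered 1241 and 145 with a minimum of 30 UMIs, 84 and 13 with 300, 233 and 66 with the median ratio scaled to 1, 650 and 124 without any C1q UMI, and 133 and 16 after thinning. Between runs the larger number turned from lower to higher genes, 67 and 54, with the medians set to 0, and they numbered 9 and 13 with 300 UMIs, 14 and 31 in cDC1 alone, and 10 and 28 without C1q UMIs. With 300 UMIs the groups had 226 higher and 265 lower in Ccr7+ DCs, 113 and 228 in cDC1, and 92 and 163 in the other DCs. The minimum sets how many genes enter a count, and the cause of the other changes was not tested. Leaving out a replicate was not possible with 1 library per genotype and run. No paired analysis was possible because each genotype had 1 library in a run and no result came from a test. The 15 Ccr7+ and 16 cDC1 barcodes of PEP-WT hold few UMIs of most genes, and 1 barcode can set a value. Without 1 such barcode Cacna1s over all PEP-WT DCs was at 32.3 CPM, Havcr2 and Nfkbia in cDC1 at 47.7 and 47.4 CPM, Ccl17 in Ccr7+ DCs at 109 CPM, Ciita in the other DCs at 92.0 CPM, and S100a9 over all PEP-619WW DCs at 44.6 CPM. The subset, haemoglobin and single-barcode alternatives and the runs in cDC1 alone were chosen after the data were seen.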
